A study of Homo sapiens with 7 samples.

Results

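Semaphorins, plexins and neuropilins were followed across 7 Affymetrix HG-U133 Plus 2 arrays of Panc1, a long-established cell line from a human pancreatic carcinoma. The members were 31 genes, chosen by name: 20 semaphorins, 9 plexins and 2 neuropilins, of 19775 genes that had a probe set carrying their symbol alone. All 31 had at least 1 such probe set and 85 probe sets were theirs. A gene was read from the probe set whose mean over all arrays was highest, called its representative probe set here, and the others were checked beside it. Per the labels, Panc1 cells had been stably transfected with pcDNA3.1/S100P-V5-His, which expresses the small calcium-binding protein S100P with a tag, or with empty pcDNA3.1/V5-His, and single-cell clones had been picked. The S100P arm held 2 arrays each of clone 1 and clone 5. The vector arm held 2 arrays of clone V3 and 1 of clone V1. All cells were grown in the same medium, short of confluence, and each clone descends from a single cell, so a clone's own traits come with its label. The study looked for genes that S100P regulates.

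Semaphorins are guidance proteins first known from growing axons. Class 3 members are secreted and mostly reach plexins through a neuropilin co-receptor, while class 4 to class 7 members are held in the membrane and mostly bind plexins directly. Plexins are transmembrane receptors whose cytoplasmic part acts on small GTPases of the R-Ras and Rap kind and loosens adhesion to matrix. Neuropilins also bind growth factors of the VEGF family. In carcinomas the family is known from work on invasion, innervation and blood vessel growth.

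Promoter windows of 250 bases before an annotated start are shown for SEMA3C, PLXNA1 and PLXND1. The difference of SEMA3C between the arms passed the test. The representative probe sets of the plexin genes PLXNA1 and PLXND1 were called higher in both S100P clones than in the vector clones, but not between the arms. The windows are RefSeq sequences on GRCh38.p14, written in the direction of transcription. Capitals mark the GC box, GGGCGG or its complement CCGCCC, with overlapping matches counted. SEMA3C has 2 annotated starts: chr7:80919052-80919301 and chr7:80922390-80922639, both on the minus strand. PLXNA1 is at chr3:126982865-126983114 on the plus strand, and PLXND1 at chr3:129606677-129606926 on the minus strand.
SEMA3C at 80919052: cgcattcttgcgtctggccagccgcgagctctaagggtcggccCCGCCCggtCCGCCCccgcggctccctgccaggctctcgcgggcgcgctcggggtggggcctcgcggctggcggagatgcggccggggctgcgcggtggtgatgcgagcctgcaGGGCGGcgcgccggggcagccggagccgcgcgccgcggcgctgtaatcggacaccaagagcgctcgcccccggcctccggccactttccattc
SEMA3C at 80922390: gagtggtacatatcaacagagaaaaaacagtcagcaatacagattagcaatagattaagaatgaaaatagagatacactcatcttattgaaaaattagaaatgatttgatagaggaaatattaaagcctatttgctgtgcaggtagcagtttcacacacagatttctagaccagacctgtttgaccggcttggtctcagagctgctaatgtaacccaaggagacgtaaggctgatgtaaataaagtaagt
PLXNA1: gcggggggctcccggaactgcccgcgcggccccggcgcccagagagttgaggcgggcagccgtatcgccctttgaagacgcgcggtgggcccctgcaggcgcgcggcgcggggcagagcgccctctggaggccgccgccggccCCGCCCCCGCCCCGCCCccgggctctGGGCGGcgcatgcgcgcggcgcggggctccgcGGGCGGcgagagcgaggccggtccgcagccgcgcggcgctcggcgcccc
PLXND1: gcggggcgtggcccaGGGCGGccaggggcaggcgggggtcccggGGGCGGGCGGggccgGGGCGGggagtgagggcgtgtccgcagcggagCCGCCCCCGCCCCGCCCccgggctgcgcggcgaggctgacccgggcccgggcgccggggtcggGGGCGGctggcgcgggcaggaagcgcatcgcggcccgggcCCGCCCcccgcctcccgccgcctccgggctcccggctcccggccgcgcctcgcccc

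The 2 SEMA3C windows are unlike each other. The first is 77.6% G and C with 39 CpG and 3 GC boxes. The second is 36.4% G and C with 2 CpG and no GC box. PLXNA1 had 84.4% G and C, 46 CpG and 5 GC boxes, and PLXND1 had 88.8%, 41 CpG and 9 GC boxes. The median of all 35116 RefSeq promoter windows of this length was 58% G and C and 11 CpG. Of the 31 members 27 had an entry, with 48 windows in all. SEMA3A, SEMA6A, SEMA6B and NRP1 had none. A GC box stood in 30 of the 48 windows, against 42.6% of all promoters. The other motifs searched, on both strands, were the TATA box TATAAA (1 of 48, 10.7% of all), TGACTCA (0, 4.20%), the E-box CACGTG (3, 6.35%), TGACGTCA (2, 1.65%) and CCAAT (11, 32.0%). A match describes letters only, and the arrays do not tell which SEMA3C start was used.

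Values are log2 signals made by RMA, and a signal of 6 was used as a mark for a clearly lit probe set. A probe set's brightness depends on its probes, so levels of different genes are not ranked here. Of the 31 members 14 lay at 6 or above on all 7 arrays, and 15 lay below 6 on every array. SEMA4F and PLXNB1 lay above it on some arrays only. Of the secreted class 3 semaphorins, SEMA3A, SEMA3C and SEMA3F were at 6 or above on all arrays and the other 4 on none. In class 4, these were SEMA4A, SEMA4B and SEMA4C, of 6 members. Of 2 class 5 members there was none, and of 4 class 6 members SEMA6B and SEMA6C. SEMA7A, the lipid-anchored member, was also lit. Of the receptors, PLXNA1, PLXNA3, PLXNB2, PLXND1 and NRP1 were lit on all arrays, while NRP2 stayed between 5.13 and 5.58. The members below 6 throughout read from 2.65 to 5.99.

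The cells carried the traits of a ductal carcinoma line. Of 7 measured epithelial and ductal markers, KRT8, KRT18, KRT19, EPCAM and SOX9 were at 6 or above on all arrays, KRT7 on all but clone 1 array b (5.94) and CDH1 on all but V1. Of 3 mesenchymal markers VIM and CDH2 were at 6 or above throughout, while FN1 read only 4.13 to 4.40. No endothelial (0 of 5), leukocyte (0 of 4) or neural (0 of 5) marker was, and of 5 fibroblast markers only COL1A1 was, while DCN, LUM and PDGFRB reached 6 on no array. The mean of the endothelial list lay between 3.90 and 4.30 on S100P arrays and between 3.96 and 4.07 on vector arrays. The fibroblast list had means of 4.99 to 5.25 on S100P arrays and 4.76 to 5.01 on vector arrays. No representative probe set of these marker lists passed between the arms, but other probe sets did, all higher on the S100P arm: COL1A1 1556499_s_at (10.55 and 10.46 in clone 1, 7.41 and 7.46 in clone 5, 4.84 on both V3 arrays and 2.97 in V1, adjusted p = 0.0490), THY1 208850_s_at and 213869_x_at (1.86-fold and 1.82-fold) and VIM 1555938_x_at (1.88-fold). In the fit of clones described below, clone 1 had less KRT8 (log2 difference -1.44, adjusted p = 6.98e-04), KRT19 (-1.23, adjusted p = 3.78e-04), KRT18 (-0.86, adjusted p = 0.00111) and KRT7 (-0.97, adjusted p = 0.00548) than the vector clones, and clone 5 had less CDH2 (-1.93, adjusted p = 1.87e-04) and KRT7 (-0.70, adjusted p = 0.0345). SOX9 was higher in both (0.93 and 0.77, adjusted p = 0.00303 and 0.0127). So was the epithelial marker CDH1 (2.68 and 2.32, adjusted p = 2.12e-05 and 6.26e-05). The part of these marker changes in the results on the family was not tested. CDH1, the epithelial cadherin, read 7.79 and 7.66 on clone 1, with 7.36 and 7.37 on clone 5, then 6.17 and 6.36 on V3 but 3.83 on V1. V1 correlated with the other arrays at r = 0.982 to 0.990 across probe sets, and arrays of 1 clone with each other at 0.996 to 0.998. Correlations between the other clones are not given here, so these values do not set V1 apart. The description of V1 starts with a different prefix from that of the other 6 arrays, so clone and separate handling cannot be told apart for V1. The 3' minus 5' log2 difference of the ACTB control, a sign of RNA integrity, was 0.53 and 0.44 in clone 1, 0.29 and 0.27 in clone 5, 0.28 and 0.32 in V3 and 0.18 in V1. S100P itself read 5.36 to 5.95 on its own arm and 4.65 to 6.01 on the vector arm (log2 difference 0.27, SE 0.32, limma adjusted p = 0.846). It is not known here if its probes detect the transfected sequence, so this does not check the labels, and directions below are those of the arms as labelled.

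SEMA3C was the member that passed the test between the arms. It encodes a secreted class 3 semaphorin that signals through neuropilins and plexins and that many carcinomas express. Its signal was 10.71 and 10.46 for clone 1 and 10.43 and 10.21 for clone 5, against 9.41 and 9.62 for V3 and 9.56 for V1. Every S100P array lay above every vector array, and both vector clones gave nearly the same level. The S100P mean was 10.45 ± 0.20 (SD, n = 4) and the vector mean 9.53 ± 0.11 (SD, n = 3). The fitted log2 difference was 0.92 (1.89-fold, SE 0.14, limma adjusted p = 0.0240). Its dimmer probe set, 203788_s_at, read 6.53 and 6.48 on clone 1, then 6.47 and 6.19 on clone 5, with 5.43 and 5.61 on V3 and 5.59 on V1. That probe set also passed (log2 difference 0.87, SE 0.12, adjusted p = 0.0179). Between all the S100P and vector arrays 1.12% of the probe sets passed, and 2.36% of the 9694 representative ones with a mean of at least 6. Of the 31 members 1 passed, and of the 16 with such a mean also 1, which is near that background. In RNA of whole cultures, more cells that express a gene and more RNA per cell cannot be told apart.

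SEMA3C lost its call without clone 1 array b, without either clone 5 array or without either V3 array (adjusted p from 0.0553 to 0.112), and with each clone averaged first (log2 difference 0.91, adjusted p = 0.290). In these fits the share of all probe sets that passed fell too, from 1.12% to between 0.291% and 0.575%, and to 0.0146% with clone averages. The call was also lost in fits where that share did not fall. These were the fit with the array letter as a replicate block (adjusted p = 0.0512, 1.68% of all) and that without clone V3. The latter left 1 vector array and gave a log2 difference of 0.89. Its log2 difference stayed between 0.79 and 1.05 in all 19 other settings tried, of which 11 kept it past the threshold. Both probe sets belong to a type whose probes can match related transcripts. CD36 and HGF are its neighbouring protein-coding genes in RefSeq.

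**Figure D1:**
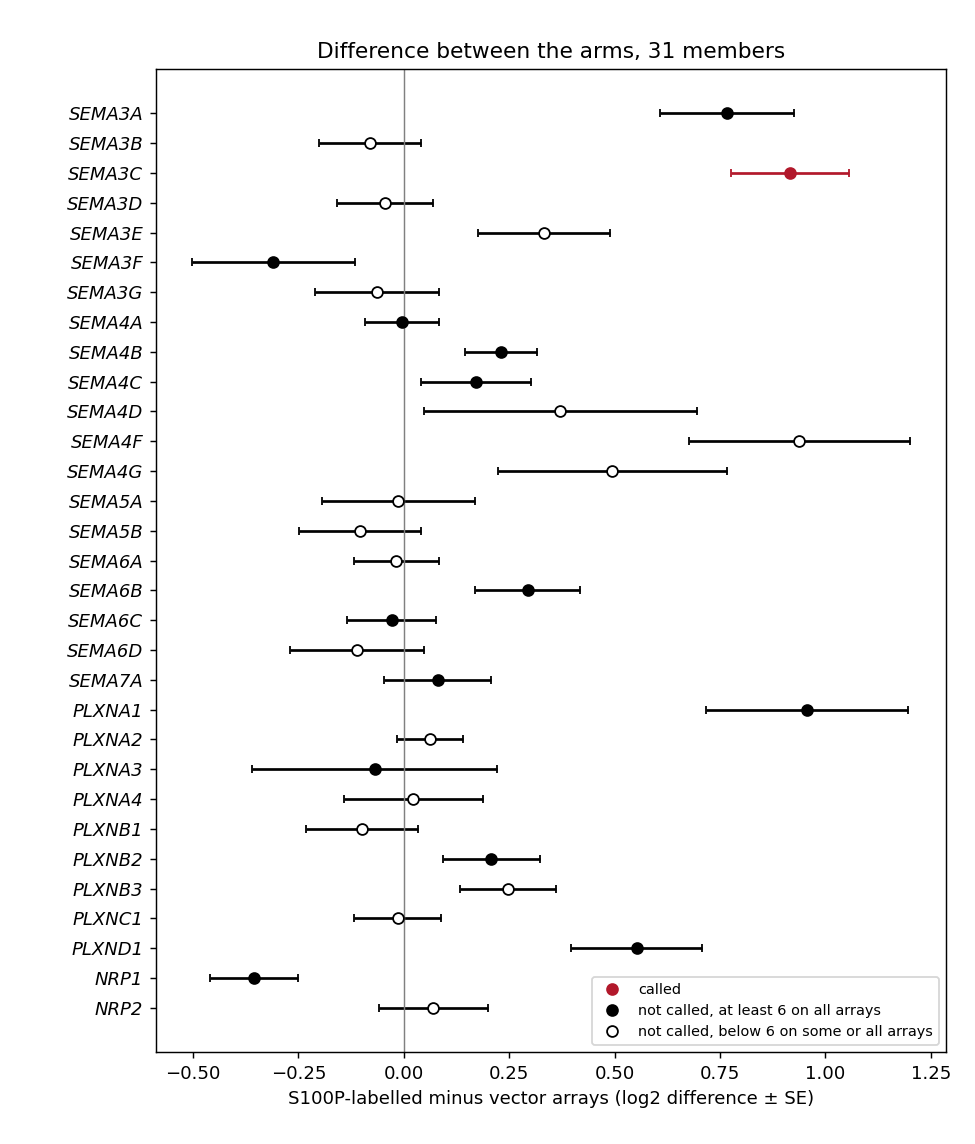
Log2 difference between S100P-labelled and vector arrays for each of the 31 members (points, with SE as bars), from the fit with the clone as a random block. SEMA3C, in red at 0.92, is the 1 member that passed, and PLXNA1 (0.96) and SEMA4F (0.94) lie as far right with SEs of 0.24 and 0.26.

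All 4 S100P arrays lay above all 3 vector arrays for 8 members: SEMA3A, SEMA3C, SEMA3E, SEMA4B, SEMA4F, SEMA6B, PLXNA1 and PLXND1. The same held for 6.74% of all probe sets, dim ones included. That share among brighter genes is not given here. Of the members NRP1 had all its S100P arrays below, as did 4.63% of all probe sets. PLXNA1 (log2 difference 0.96, adjusted p = 0.129), SEMA4F (0.94, 0.174), SEMA3A (0.77, 0.0708) and PLXND1 (0.55, 0.176) missed the threshold between the arms. The median log2 difference was 0.06 over the members and -0.0024 over all probe sets, and 8 members had an unadjusted p under 0.05, as had 6468 of the 54613 probe sets.

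The members were then compared by clone, in a limma fit in which each clone had its own level and the spread was that between arrays of 1 clone. It compares these clones, not conditions. Clone 1 against the mean of both vector clones gave 10 members past the threshold, 8 higher and 2 lower, on a background of 12.8% of all probe sets. Of the 16 brighter members 8 passed, against 29.2% of all such genes. In the same way clone 5 gave 6 members, all higher, on a background of 6.75%. Of the brighter members 5 passed, against 14.0%. Without either clone 1 array 3 members passed for clone 1 (SEMA3A, SEMA4F and PLXNA1), while the share of all probe sets fell from 12.8% to 1.41% and 1.67%. It was 6 without any single clone 5 or V3 array (7.67% to 9.35% of all). For clone 5 the count was 0 without either clone 5 array (0.326% and 0.511% of all), 1 (SEMA4F) without either clone 1 array (0.815%), and 3 or 5 without V3 array a or b (1.91% and 2.46%). Both comparisons use the same vector arrays. The median log2 difference of the members was 0.08 in each.

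**Figure D2:**
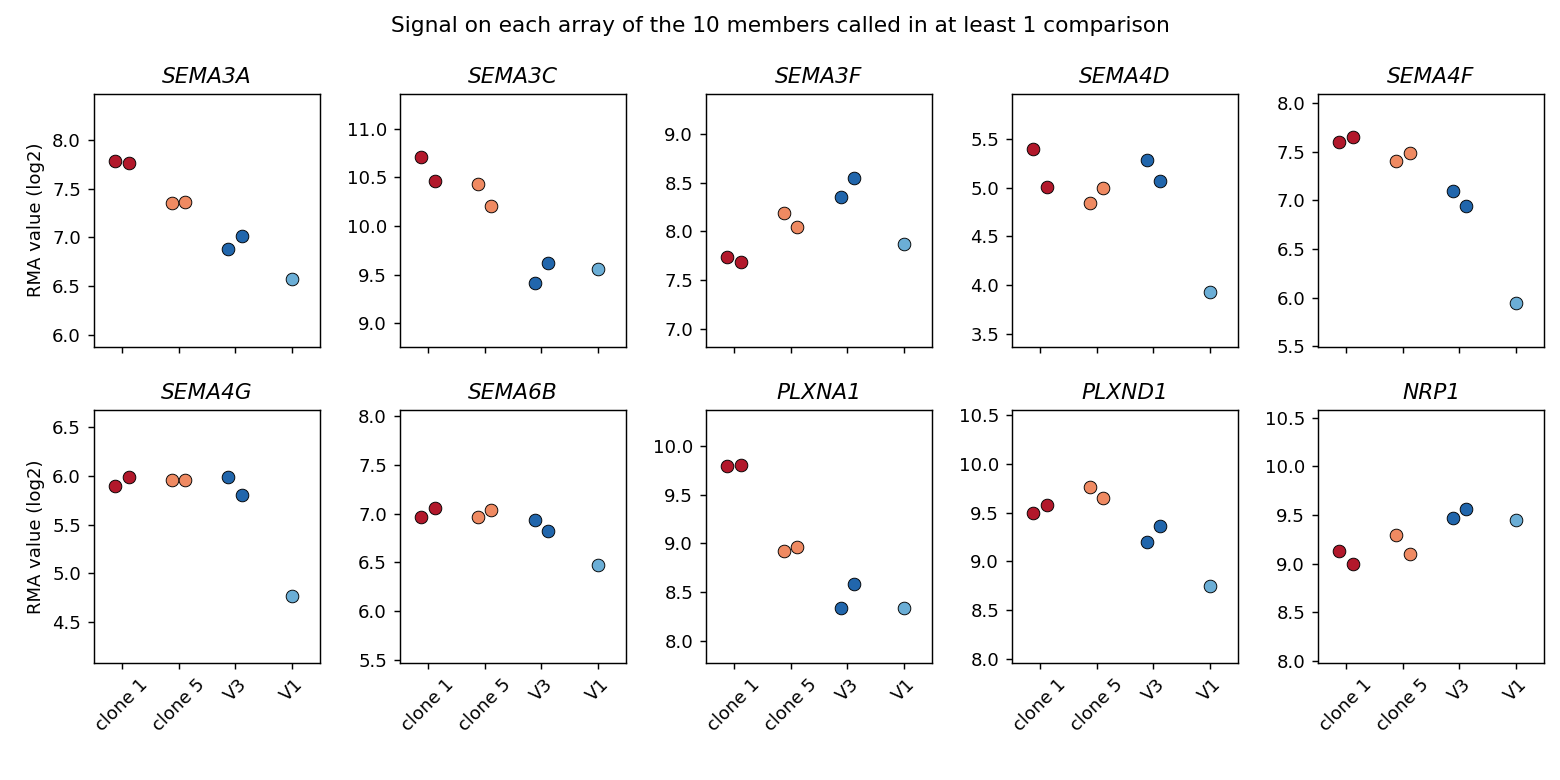
RMA signal (log2) on each of the 7 arrays for the 10 members that passed in at least 1 comparison, 1 panel per gene, each point an array and all panels spanning the same number of log2 units. SEMA3C and PLXNA1 have both vector clones at nearly the same level, while SEMA4D, SEMA4F and SEMA4G drop on V1.

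Among the secreted ligands, SEMA3A, the classical repellent of axons, was also higher in both S100P clones. It read 7.78 and 7.76 in clone 1, 7.35 and 7.36 in clone 5, 6.88 and 7.01 in V3 and 6.57 in V1. No arrays of different clones overlapped, and clone 1 was the highest. Against the vector clones it was 2.02-fold higher in clone 1 (log2 difference 1.02, SE 0.08, adjusted p = 5.59e-04) and 1.52-fold higher in clone 5 (0.60, adjusted p = 0.00883). Against V3 alone the log2 difference was 0.83 for clone 1 (adjusted p = 0.00247) and 0.41 for clone 5 (adjusted p = 0.0554). These comparisons with a single vector clone were added after the data had been seen. The 2 other SEMA3A probe sets read at most 4.08 and were not called. SEMA3A lies between SEMA3E and SEMA3D on chromosome 7, and neither of these reached 6 on any array. The ACTB 3' minus 5' difference had its highest values on clone 1 and its lowest on V1, as SEMA3A, SEMA4F and MRAS did, and its part in these results was not tested.

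SEMA3C was 2.06-fold higher in clone 1 (log2 difference 1.04, SE 0.12, adjusted p = 0.00225) and 1.72-fold higher in clone 5 (0.78, adjusted p = 0.0140). Against V3 alone it was 1.07 higher on the log2 scale in clone 1 (adjusted p = 0.00417) and 0.80 in clone 5 (adjusted p = 0.0208). Against V1 alone these differences were 1.02 and 0.76, both called. SEMA3C was the member called for both S100P clones against each vector clone by itself.

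SEMA3F, a secreted ligand of NRP2 with a known role against vessel growth, ran the other way in clone 1. Its signal was 7.74 and 7.68 for clone 1 and 8.19 and 8.04 for clone 5, against 8.35 and 8.55 for V3 and 7.87 for V1. Clone 1 lay below all other arrays, and V1 lay nearer to clone 1 than to V3. The log2 difference was -0.45 for clone 1 (SE 0.10, adjusted p = 0.0281) and -0.05 for clone 5 (adjusted p = 0.862). Against V3 alone, clone 1 gave -0.74 (adjusted p = 0.00763), and against V1 alone -0.16 (adjusted p = 0.569). A second SEMA3F probe set, 206832_s_at, gave -0.86 for clone 1 (adjusted p = 0.0231) and -0.68 for clone 5 (adjusted p = 0.078). Its S100P arrays all lay below its vector arrays, with 6.25 on V1, close to the 6.11 and 6.30 on V3. The representative probe set and 206832_s_at therefore differ on V1 and in clone 5. The third, 209730_at, gave -0.30 for clone 1 and -0.11 for clone 5, neither called.

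The remaining class 3 members, SEMA3B, SEMA3D, SEMA3E and SEMA3G, were dim and passed nowhere. SEMA3E, a ligand of PLXND1, had its S100P arrays between 3.92 and 4.30 and its vector arrays between 3.49 and 3.91, with a log2 difference of 0.33 (adjusted p = 0.460).

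In class 4, SEMA4F, a membrane semaphorin, read 7.60 and 7.65 on clone 1, then 7.40 and 7.48 on clone 5, with 7.09 and 6.94 on V3 and 5.94 on V1. It was higher in both S100P clones, and V1 lay far below V3. Against both vector clones it was 2.21-fold higher in clone 1 (log2 difference 1.15, adjusted p = 4.48e-04) and 1.95-fold higher in clone 5 (0.96, adjusted p = 0.00190). Against V3 alone the log2 difference was 0.61 for clone 1 (adjusted p = 0.00988) and 0.43 for clone 5 (adjusted p = 0.0575). Without V1 SEMA4F was also called between the arms. A second probe set, 228660_x_at, behaved alike (log2 differences 1.09 and 0.88, both called), while 208124_s_at gave 0.15 and 0.27 and was not called. Probes of all 3 can match related transcripts.

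SEMA4D and SEMA4G were called through V1. SEMA4D, also known as CD100 and a ligand of PLXNB1, read 5.40 and 5.01 in clone 1, 4.84 and 5.00 in clone 5, 5.28 and 5.07 in V3 and 3.93 in V1. V1 stood alone at the bottom, and the V3 arrays lay within the range of clone 1. For SEMA4G the signal was 5.90 and 5.99 on clone 1, 5.96 on both clone 5 arrays, 5.99 and 5.81 on V3 and 4.77 on V1. SEMA4D was 0.65 higher on the log2 scale in clone 1 than in the vector clones (adjusted p = 0.0242), and SEMA4G 0.61 higher in clone 1 (adjusted p = 0.00604) and 0.63 higher in clone 5 (adjusted p = 0.0108). Against V3 alone the differences were 0.03 (SE 0.15) for SEMA4D in clone 1, and 0.04 and 0.06 (SE 0.10) for SEMA4G in clones 1 and 5, none called. The second SEMA4G probe set was dim and gave -0.28 for clone 1, not called. The second SEMA4D probe set, 228891_at, read 3.55 on all 3 vector arrays and was not called for clone 1 (0.01) or clone 5 (-0.12).

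SEMA4B, a membrane semaphorin and among the 5 members described for their high mean, moved little. Its signal was 11.78 on both clone 1 arrays, 11.67 and 11.71 on those of clone 5, then 11.41 and 11.52 on V3, with 11.57 on V1. The arms did not overlap, but the log2 difference of 0.23 (SE 0.09) had an adjusted p of 0.334. SEMA4A stayed between 6.26 and 6.44, and SEMA4C between 8.21 and 8.75 with its lowest value on V1.

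SEMA6B, a membrane ligand of class A plexins, read 6.97 and 7.06 for clone 1 and 6.97 and 7.04 for clone 5, against 6.93 and 6.82 for V3 and 6.47 for V1. It was called in clone 1 (log2 difference 0.34, adjusted p = 0.0472) and not in clone 5 (0.33, adjusted p = 0.0756). Against V3 alone these were 0.14 and 0.13, neither called. Its probe set 224182_x_at gave 0.10 for clone 1 and 0.27 for clone 5, with V1 at 6.68, level with clone 1, and 223567_at gave 0.66 and 0.70, none of them called. SEMA6A, SEMA6C and SEMA6D and both class 5 members passed in no comparison. SEMA7A, a ligand of PLXNC1 and integrins, read 6.70 to 7.14 and had a log2 difference between the arms of 0.08, with -0.31 at its other probe set and neither called.

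Of the receptors, PLXNA1, which pairs with neuropilins to receive class 3 ligands, had the largest difference in clone 1. Its signal was 9.79 and 9.80 on clone 1, then 8.92 and 8.96 on clone 5, with 8.34 and 8.58 on V3 and 8.34 on V1. Clone 1 stood well above clone 5, which stood above both vector clones. It was 2.63-fold higher in clone 1 than in the vector clones (log2 difference 1.40, SE 0.10, adjusted p = 3.07e-04) and 1.46-fold higher in clone 5 (0.54, adjusted p = 0.0210). Against V3 alone the log2 difference was 1.34 for clone 1 (adjusted p = 6.33e-04) and 0.48 for clone 5 (adjusted p = 0.0528). A second PLXNA1 probe set, 221537_at, read 6.75 to 7.38 and gave only 0.32 for clone 1 and 0.13 for clone 5, neither called.

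The S100P clones were also compared with each other. Of the members, PLXNA1 passed: clone 5 was 1.81-fold lower than clone 1 (log2 difference -0.85, SE 0.10, adjusted p = 0.0127). Of all probe sets 2.19% passed, and 4.89% of the brighter genes. The log2 difference of PLXNA1 stayed between -0.84 and -0.87 with any 1 array left out. With an array of clone 1, clone 5 or V3 left out, 0 of the 54613 probe sets passed, so those fits do not bear on this call (unadjusted p under 0.05 at 4468 to 11537 of them). At 221537_at it was -0.19 (adjusted p = 0.486). SEMA3A (-0.42, adjusted p = 0.0718) and NRP2 (0.40, adjusted p = 0.0712) missed the threshold, as did SEMA3C (-0.27, SE 0.13, adjusted p = 0.416).

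PLXND1, the receptor of SEMA3E, was higher in both S100P clones. It read 9.50 and 9.58 in clone 1, 9.76 and 9.65 in clone 5, 9.20 and 9.36 in V3 and 8.75 in V1. The S100P clones lay close together and V1 was the lowest. Against both vector clones it was 1.44-fold higher in clone 1 (log2 difference 0.53, adjusted p = 0.0110) and 1.61-fold higher in clone 5 (0.69, adjusted p = 0.00760). Against V3 alone the log2 differences were 0.27 (adjusted p = 0.204) and 0.43 (adjusted p = 0.0683). Its probe set 212235_at was called in both clones too (0.58 and 0.64), while the dim 1563657_at gave -0.26 and -0.29 and was not called.

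The other plexins did not pass in any comparison. PLXNB2, a receptor of class 4 semaphorins, read 9.07 and 9.08 for clone 1 and 9.10 and 9.13 for clone 5, against 8.89 and 9.12 for V3 and 8.70 for V1, and the arms overlapped (log2 difference 0.21, SE 0.12, adjusted p = 0.560). PLXNA3 ranged from 6.07 to 7.12, with its lowest value on clone 5 array a and 7.08 on array b of that clone. PLXNB1, the receptor of SEMA4D, stayed between 5.87 and 6.38. PLXNA2, PLXNA4, PLXNB3 and PLXNC1 read below 6 throughout.

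NRP1, the neuropilin that binds SEMA3A and VEGFA, was the member with every S100P array below every vector array. It read 9.13 and 9.00 on clone 1, then 9.30 and 9.10 on clone 5, with 9.47 and 9.56 on V3 and 9.45 on V1. The arms lay close together without overlap. The log2 difference was -0.35 between the arms (SE 0.10, adjusted p = 0.196), -0.42 for clone 1 (adjusted p = 0.0371) and -0.28 for clone 5 (adjusted p = 0.169). Against V3 alone clone 1 gave -0.45 (adjusted p = 0.0525). A second lit probe set, 210510_s_at, gave 0.02 and 0.05 for the 2 clones, so the NRP1 probe sets disagree. Its neighbouring gene ITGB1, an integrin subunit, read 12.60 to 12.80.

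NRP2, the co-receptor preferred by SEMA3F, read 5.13 and 5.19 on clone 1, with 5.58 and 5.54 on clone 5, 5.26 on both V3 arrays and 5.34 on V1. It passed in no comparison.

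**Figure D3:**
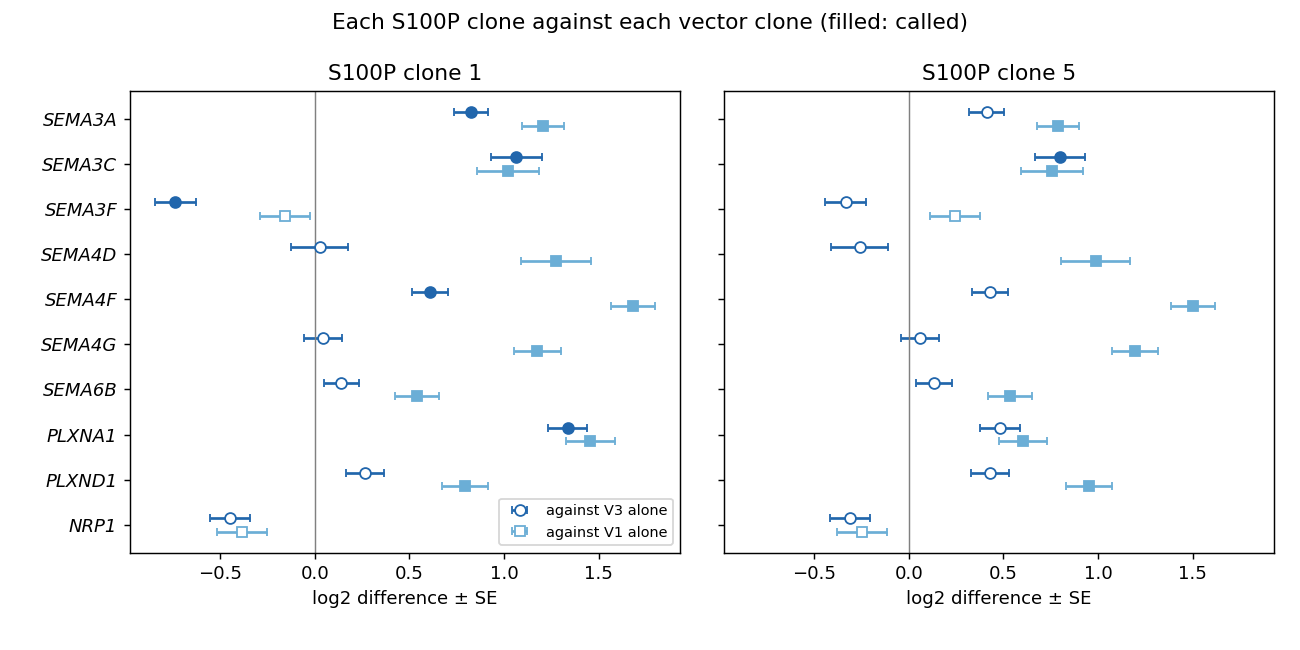
Log2 difference ± SE of S100P clone 1 (left) and clone 5 (right) against V3 alone (circles) and V1 alone (squares) for the 10 members called in at least 1 comparison, filled where the adjusted p was under 0.05. SEMA3C lies between 0.76 and 1.07 in all 4, while SEMA4D and SEMA4G lie near 0 or below it against V3 and near 1 or above against V1.

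The vector clones were set against each other to show how far clones of 1 arm differ. SEMA4D (log2 difference -1.25, 2.38-fold, adjusted p = 0.0128), SEMA4F (-1.07, 2.10-fold, adjusted p = 0.00501) and SEMA4G (-1.13, 2.20-fold, adjusted p = 0.00487) were lower in V1 than in V3. All 3 are class 4 members. Of all probe sets 5.85% passed, and 13.0% of the brighter genes, among which 1 of the 16 brighter members. V1 had 1 array and was taken to vary like the other clones, and without any array of clone 1 or V3 0 of all probe sets passed in limma (unadjusted p under 0.05 at 8584 to 11733 of them), so those fits do not bear on the 3 calls. Without either clone 5 array 1.66% of all probe sets passed. There SEMA4F and SEMA4G kept their calls and SEMA4D lost its own. With all arrays PLXND1 was lower in V1 at 212235_at (-0.57, adjusted p = 0.0490), and PLXNA1 was higher in V1 at 1558140_at (0.77, adjusted p = 0.0122).

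**Figure D4:**
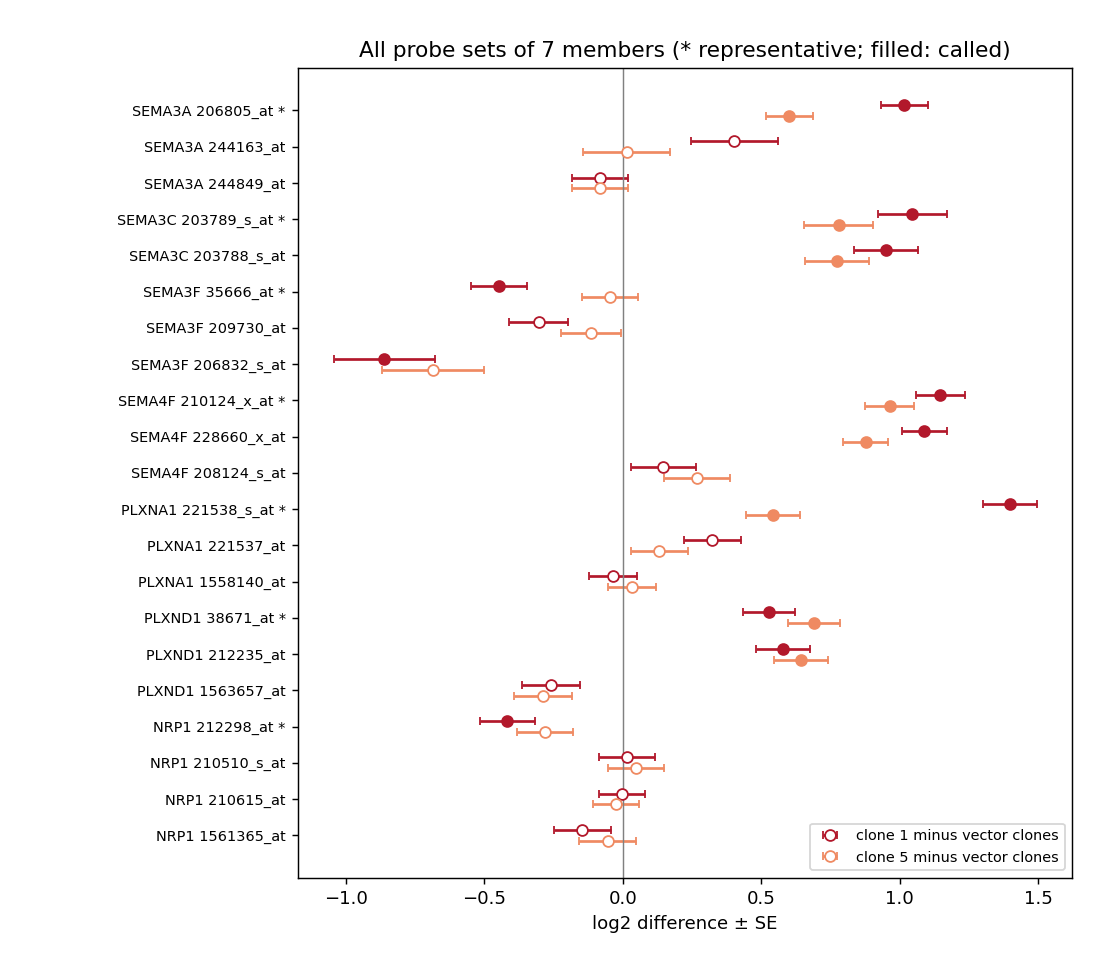
Log2 difference ± SE of clone 1 and of clone 5 from the mean of the vector clones for every probe set of 7 members, the representative one starred and called ones filled. Both SEMA3C probe sets lie well above 0, while those of PLXNA1 and NRP1 differ from each other.

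The 21 members that passed nowhere had log2 differences between the arms from -0.11 (SEMA6D) to 0.33 (SEMA3E), with SEs of 0.08 to 0.29. Of the 85 probe sets of the family, 2 passed between the arms, both of SEMA3C, 14 in clone 1 and 9 in clone 5 against the vector clones, beside 1.12%, 12.8% and 6.75% of all probe sets.

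Partners of the family were read from a list of 57 genes, of which 54 were measured. The list was chosen with earlier results of these data known. Between the arms 1 was higher and 0 were lower, near the background of 1.12% of all probe sets and 2.36% of brighter genes. MRAS, a GTPase of the R-Ras family, the kind on which plexins act, read 8.46 and 8.24 in clone 1, 7.83 and 7.85 in clone 5, 6.72 and 6.54 in V3 and 5.30 in V1. Both S100P clones lay above both vector clones, and V1 lay lowest. MRAS was 3.96-fold higher (log2 difference 1.98, SE 0.34, adjusted p = 0.0392). Against V3 alone it was 3.29-fold higher in clone 1 and 2.31-fold higher in clone 5, both called. Its other probe set, 206538_at, gave 0.74 (adjusted p = 0.0636), and the call was lost with any single S100P or V3 array left out (adjusted p from 0.0942 to 0.122), where 0.291% to 0.707% of all probe sets passed.

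None of the 13 co-receptors passed between the arms. ERBB2, a partner of class B plexins, gave 0.76 (adjusted p = 0.154), and MET, another such partner, -0.37 (adjusted p = 0.207). A dim MET probe set, 213816_s_at, was called lower: it read 4.65 and 5.00 for clone 1 and 4.80 and 4.75 for clone 5, against 5.56 and 5.40 for V3 and 5.87 for V1. Of 5 measured growth factors that bind neuropilins or MET none passed. VEGFA read 10.75 and 10.65 on clone 1, then 10.12 and 9.73 on clone 5, with 10.05 and 9.84 on V3 and 8.60 on V1, so clone 5 overlapped V3 (log2 difference 0.89, adjusted p = 0.419). PGF gave 0.36 (adjusted p = 0.362). None of 7 proteases that process semaphorins passed, with ADAM17 at 0.44 (adjusted p = 0.265) and PCSK5 at -0.24 (adjusted p = 0.364). Of 29 effectors MRAS was the 1 that passed.

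By clone, 7 of the 54 partners were higher and 2 lower in clone 1 than in the vector clones, beside 12.8% of all probe sets and 29.2% of brighter genes. In clone 5 there were 5 higher and 0 lower, FYN, VEGFA, PGF, ERBB2 and MRAS, beside 6.75% of all probe sets and 14.0% of brighter genes. Clone 5 had less VEGFA than clone 1 (log2 difference -0.78, adjusted p = 0.0494). V1 had 8 partners lower than V3 and 0 higher, beside 5.85% of all probe sets and 13.0% of brighter genes called in either direction. Of all probe sets tested, 1790 were called lower and 1405 higher. FYN, a kinase downstream of SEMA3A, read 3.96 on V1 and 6.42 and 6.50 on V3. FYN was named after its values had been seen.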

How the data were processed

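The 7 columns of log2 values were deposited by the authors and made with RMA, per the submitters' processing notes, which give no version. The table states no scale; its range is that of log2 values. RMA can shrink differences of dim probe sets, and no detection calls were used here, so the number of arrays limits the precision. Of 54675 probe sets, 62 controls were left out and 54613 tested; 41091 carried 1 symbol, 1801 several and 11721 none. One member probe set with several symbols, of SEMA3B, was not used.

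limma 3.58.1 with statmod 1.5.0 in R 4.3.3 fitted the arm with the clone as a random block (consensus correlation 0.287), and a second fit gave each clone its own level, with V1 and V3 weighted equally. P-values are two-sided and adjusted by Benjamini-Hochberg over all probe sets, with a threshold of 0.05. Whether arrays a and b were separate cultures is not in the labels, so p-values measure the spread between these arrays, which may be technical. The fits were tested on simulated data. Array letters did not pair samples across clones (r from -0.08 to 0.06). Members and lists were chosen with earlier results of these data known. Members were described on every array if called, if among the 5 of highest mean, or if the arms did not overlap by a difference of at least 0.5; pathway genes were named if called between the arms, otherwise the 2 of largest difference per list. Alternatives changed the block, normalization, filter, trend, probe set choice and arrays. One result on a partner gene is not reported here.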

Additional observations from a re-analysis of the deposited data

Results flagged for a closer look

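Clone 5 differed from clone 1 in PLXNA1, with a log2 difference of -0.854 in the fit of clones. Among 31 groups of 4 S100P arrays tested for a sample far from the others, 3 had one. Chance gives about 1 in 20 for independent values, a rate that need not hold for 2 arrays each of 2 clones. SEMA3E read 4.303 on clone 1 array b, above the other S100P arrays. SEMA6D read 4.623 on clone 5 array a, also the highest. PLXNB1 read 5.867 on clone 5 array a, below the other 3, which shared 1 value.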

How the results depend on the processing

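Between the arms 1 member passed, and 0 did with only the more specific probe sets (SEMA3C has none, so it was not tested there), with the array letter as a replicate block or with clone averages (1.68% and 0.0146% of all probe sets passed, against 1.12%). The count was 3 without clone 5 (2.48% of all), 4 without clone V3 (3.07%) with SEMA3C not among them (adjusted p = 0.0938), and 0 to 2 with 1 array left out, 2 without V1 (3.13%; 0.291% to 0.707% without another array). Of the partners 1 passed, and 0 did at the second probe set, with clone averages, without clone 1 or without clone 5; 5 did without V3, and 0 to 3 with 1 array left out, 3 without V1. For clone 5 minus clone 1 the count of 1 became 0 at the second probe set, with specific probe sets and with the mean of probe sets, 2 with median centring (3.32% of all against 2.19%), 3 with the filter on low values (16.1%), and 0 to 1 with 1 array left out, where 0% of all passed unless that array was V1. For V1 minus V3 the count of 3 became 1 with the mean of probe sets (8.85% of genes), 5 with quantile normalization, median centring or an intensity trend (6.49% to 7.28% of all against 5.85%), 6 with the filter (26.8%), and 0 to 2 with 1 array left out (0% to 1.66%). For clone 1 minus vector clones the count of 10 became 5 against V3 alone (chosen after seeing the data; 7.53% of all against 12.8%), 3 at the second probe set, 6 with specific probe sets and 3 to 6 with 1 array left out (1.41% to 9.35%). For clone 5 minus vector clones the count of 6 became 1 against V3 alone (4.20% of all against 6.75%), 3 at the second probe set, 3 with specific probe sets and 0 to 5 with 1 array left out (0.326% to 2.46%). The second probe set turned the sign of SEMA4G (0.32 for V1 minus V3, -0.28 for clone 1, -0.084 for clone 5), NRP1 in clone 1 (0.017) and MRAS in V1 minus V3 (0.081), none called. The cause of these changes was not tested, beyond the shares of all probe sets given beside them. Over single genes, 805 values kept direction and call, 135 lost the call, 31 gained it and 5 turned sign. With the array letter as a replicate block, SEMA3C had a log2 difference of 0.93 and an adjusted p of 0.0512. Signal near background limits the dim members.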
